A study of Mus musculus with 12 samples.

Results

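The genes described here are 10 mouse genes used to recognise macrophages and their states of activation: Adgre1, Cd68, Mrc1, Msr1, Cd163, Mertk, Trem2, Folr2, Arg1 and Nos2. They were taken by symbol from a table of 55401 genes, and each symbol matched 1 row. Tumour RNA was sequenced in 12 libraries, 3 in each of 4 groups, from mice labelled as C57BL/6. According to the labels, every mouse carried an orthotopic oral tumour of MTC-Q1, a mouse oral cancer line, and dosing began once the tumour measured 100 mm3. The groups received an IgG1-Fc isotype control (Ctrl-IgG), an antibody to the receptor CSF1R (aCSF1R), a recombinant interleukin-10-Fc protein (IL-10-Fc), or BF10, which fuses interleukin-10 with the CSF1R antibody. The number of doses stands as 4 in one label and 6 in another, and no age is given in the labels. Replicate numbers only name libraries.

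Macrophages are phagocytes that arise from embryonic precursors or from blood monocytes, and CSF1R is the receptor through which CSF1 and IL-34 keep most of them alive. In culture, interferon gamma and bacterial products drive them to make nitric oxide through Nos2, whereas IL-4 and IL-13 raise Arg1 and the mannose receptor Mrc1. Interleukin-10 restrains the former programme and is known to raise the haemoglobin scavenger receptor Cd163 in human monocytes. In tumours these programmes mix, and Trem2, Mrc1 and Folr2 mark overlapping subsets of tumour macrophages.

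The libraries fell on separate sides before any macrophage gene was considered. H2-Ea is an MHC class II gene whose transcript C57BL/6 mice lack. It did not exceed 0.27 FPKM in any of the 6 libraries of Ctrl-IgG and aCSF1R, yet ranged from 553 to 1727 FPKM across all 6 of IL-10-Fc and BF10, which goes against the labelled strain. The study also treated a breast tumour model, 4T1 in BALB/c mice, a strain that transcribes H2-Ea, and whether all libraries come from the labelled model was not tested. FPKM are read fragments scaled to transcript length and to sequencing depth, so levels of different genes can be compared. Xist, transcribed in female cells, was at most 0.04 FPKM on the former side and 17.1 to 30.7 FPKM on the latter. The Y-linked gene Eif2s3y was 4.23 to 11.3 FPKM on the former side. On the latter it was at most 0.05 FPKM except in BF10 replicate 3, at 3.29 FPKM. That library thus held both transcripts, with Xist at 23.65 FPKM, and the cause was not tested. Summed keratins and adhesion genes of simple epithelium (5 genes) were 0.86 to 8.86 FPKM against 511 to 1347 FPKM. Treatment with interleukin-10 and this difference between libraries cannot be told apart, so comparisons within a side come first below. Stratified keratinocyte genes (9 genes, summed) were 1446 to 1806 FPKM in Ctrl-IgG replicate 3 and aCSF1R replicates 1 and 2, and at most 36.7 FPKM elsewhere. In the other 3 libraries of the Ctrl-IgG and aCSF1R side the sum was at most 4.83 FPKM, near 0 for a tumour labelled as an oral carcinoma. The FPKM of all genes summed to 819001 to 976950 in 4 libraries, namely replicate 2 of Ctrl-IgG, the first 2 of IL-10-Fc and replicate 1 of BF10, and to at most 701275 in the other 8. Mitochondrial genes took 6.57% to 9.04% of that sum in these 4 and 2.99% to 3.61% in the others. Skeletal muscle genes (10 genes, summed) were 677 to 1112 FPKM in the 3 libraries with keratinocyte genes and at most 140.7 FPKM elsewhere.

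All 10 genes passed the filter on low values (1 FPKM or more in 3 or more libraries), as did 15813 genes in all. In bulk tumour RNA, fewer cells of a type and less RNA per cell cannot be told apart. In Ctrl-IgG tumours Cd68 was the most abundant of the 10, with a mean of 56.2 FPKM, followed by Msr1 at 27.9 FPKM, and Cd163 was the lowest at 1.47 FPKM. In aCSF1R the order began with Cd68, Arg1 and Nos2, at 49.5, 33.9 and 24.6 FPKM. In IL-10-Fc and in BF10 Arg1 stood first, at 141 and 209 FPKM, and Msr1 second, at 110.1 and 83.9 FPKM.

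**Figure D1:**
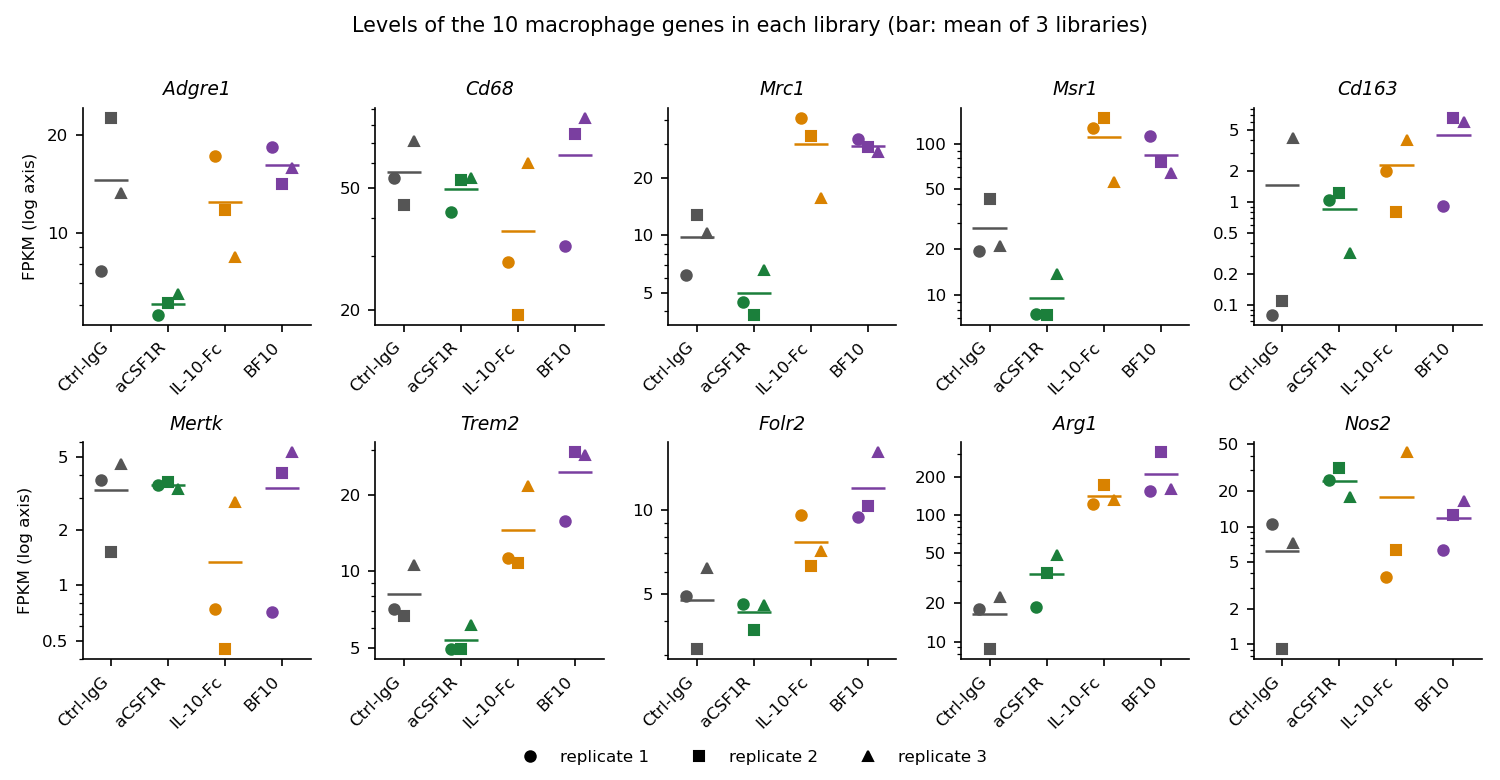
FPKM of each of the 10 genes (log axis, its own range in each panel) in the 12 libraries, by treatment group; symbols mark the 3 replicates and bars the group mean. Mrc1, Msr1, Trem2, Folr2 and Arg1 were higher in every IL-10-Fc and BF10 library than in any Ctrl-IgG or aCSF1R library.

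Adgre1 encodes F4/80, the surface receptor by which mouse macrophages are most often identified (ENSMUSG00000004730, GRCm38, chr17:57358691-57483527). It was 7.63, 22.6 and 13.3 FPKM in Ctrl-IgG replicates 1 to 3 and 5.57, 6.06 and 6.46 FPKM in aCSF1R. The IL-10-Fc libraries held 17.2, 11.8 and 8.40 FPKM and the BF10 libraries 18.4, 14.1 and 15.9 FPKM. All 3 aCSF1R libraries lay below every library of the other groups, whereas the ranges of Ctrl-IgG, IL-10-Fc and BF10 overlapped. The group means ran from 16.1 ± 2.18 FPKM in BF10 through 14.5 ± 7.56 in Ctrl-IgG and 12.5 ± 4.46 in IL-10-Fc to 6.03 ± 0.446 in aCSF1R (SD, n = 3 each).

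Cd68 encodes a lysosomal glycoprotein of macrophages, also present in other phagocytes (ENSMUSG00000018774, chr11:69664213-69666153). Its values were 53.8, 43.9 and 70.85 FPKM in Ctrl-IgG and 41.7, 53.1 and 53.7 FPKM in aCSF1R. With IL-10-Fc it was 28.8, 19.3 and 60.25 FPKM, and with BF10 32.4, 75 and 84.5 FPKM. Neighbouring groups overlapped throughout, and the 3 lowest values belonged to the IL-10-Fc and BF10 libraries of high FPKM sum. The means were 63.95 ± 27.7 FPKM in BF10, 56.2 ± 13.6 in Ctrl-IgG, 49.5 ± 6.75 in aCSF1R and 36.1 ± 21.4 in IL-10-Fc (SD, n = 3 each).

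Mrc1, the mannose receptor CD206, takes up glycoproteins and is a standard marker of alternative activation (ENSMUSG00000026712, chr2:14229392-14332057, with Mir511 inside it on the same strand). It was 6.22, 12.8 and 10.2 FPKM in Ctrl-IgG and 4.49, 3.82 and 6.60 FPKM in aCSF1R. With IL-10-Fc it reached 41.3, 33.3 and 15.75 FPKM, and with BF10 31.8, 29.0 and 27.4 FPKM. The mean of BF10 (29.4 ± 2.23 FPKM, SD, n = 3) was close to that of IL-10-Fc, and the ranges of both overlapped (30.1 ± 13.1 FPKM in IL-10-Fc), while Ctrl-IgG (9.75 ± 3.31 FPKM) overlapped aCSF1R (4.97 ± 1.45 FPKM).

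Msr1 is the class A scavenger receptor, which binds modified lipoproteins (ENSMUSG00000025044, chr8:39581685-39642673). In Ctrl-IgG it was 19.5, 43.0 and 21.2 FPKM, and in aCSF1R 7.52, 7.37 and 13.8 FPKM. The IL-10-Fc tumours held 126, 148 and 55.5 FPKM and the BF10 tumours 112, 75.9 and 64.3 FPKM. Msr1 kept the sides and also Ctrl-IgG and aCSF1R apart, with means of 110.1 ± 48.4 FPKM in IL-10-Fc, 83.9 ± 24.7 in BF10, 27.9 ± 13.1 in Ctrl-IgG and 9.56 ± 3.66 in aCSF1R (SD, n = 3 each). IL-10-Fc and BF10 overlapped.

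Cd163 was the least abundant of the 10 genes outside IL-10-Fc and BF10 (ENSMUSG00000008845, chr6:124304656-124330527). It was 0.08, 0.11 and 4.21 FPKM in Ctrl-IgG and 1.04, 1.22 and 0.32 FPKM in aCSF1R. With IL-10-Fc it was 2.01, 0.80 and 4.01 FPKM, and with BF10 0.92, 6.61 and 6.03 FPKM. The 4 groups overlapped, with means from 0.86 ± 0.476 FPKM in aCSF1R to 4.52 ± 3.13 in BF10 (SD, n = 3 each). Within Ctrl-IgG, replicate 3, the library with keratinocyte genes, stood far above replicates 1 and 2.

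Mertk is a receptor tyrosine kinase through which macrophages engulf apoptotic cells (ENSMUSG00000014361, chr2:128698956-128802894). It overlaps an antisense gene, Gm14011, and since the strand setting used in counting is not given in the sources used here, their reads cannot be told apart. Mertk was 3.74, 1.52 and 4.59 FPKM in Ctrl-IgG and 3.53, 3.65 and 3.34 FPKM in aCSF1R. IL-10-Fc gave 0.74, 0.45 and 2.84 FPKM, and BF10 gave 0.72, 4.06 and 5.31 FPKM. IL-10-Fc lay wholly below aCSF1R, all other pairs of groups overlapped, and the 4 lowest libraries were those of highest FPKM sum.

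Trem2 is a lipid-binding receptor that signals through the adaptor Tyrobp (ENSMUSG00000023992, chr17:48346401-48354147). In Ctrl-IgG it was 7.10, 6.69 and 10.6 FPKM, and in aCSF1R 4.93, 4.94 and 6.15 FPKM. The IL-10-Fc libraries were at 11.25, 10.8 and 21.8 FPKM, and those of BF10 at 15.8, 29.6 and 28.7 FPKM. aCSF1R lay wholly below Ctrl-IgG and Ctrl-IgG wholly below IL-10-Fc, although only by 10.6 against 10.8 FPKM at the boundary. The means ran from 5.34 ± 0.701 FPKM in aCSF1R and 8.13 ± 2.15 in Ctrl-IgG to 14.6 ± 6.24 for IL-10-Fc and 24.7 ± 7.70 FPKM for BF10 (SD, n = 3 each), and the last 2 groups overlapped.

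Folr2, the folate receptor beta, marks resident-like macrophages in several tissues (ENSMUSG00000032725, chr7:101839988-101857194, overlapped by the antisense gene Gm10602). It was 4.89, 3.16 and 6.17 FPKM in Ctrl-IgG and 4.61, 3.70 and 4.55 FPKM in aCSF1R. With IL-10-Fc it was 9.62, 6.31 and 7.15 FPKM, and with BF10 9.42, 10.3 and 16.2 FPKM. The sides were separate by a narrow gap, 6.17 against 6.31 FPKM, and the groups within each side overlapped.

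Arg1 encodes arginase 1, which turns arginine into ornithine and urea (ENSMUSG00000019987, chr10:24915221-24927484). In Ctrl-IgG it was 18.1, 8.72 and 22.4 FPKM, and in aCSF1R 18.7, 34.9 and 48.1 FPKM. Under IL-10-Fc it was 121, 173 and 130.0 FPKM, and under BF10 154, 313 and 159 FPKM. No gene of the 10 separated the sides by more, since the lowest IL-10-Fc library stood at 121 FPKM and the highest aCSF1R library at 48.1 FPKM. The highest mean was that of BF10, 209 ± 90.1 FPKM, followed by IL-10-Fc at 141 ± 27.6, aCSF1R at 33.9 ± 14.7 and Ctrl-IgG at 16.4 ± 6.99 FPKM (SD, n = 3 each).

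Nos2, the inducible nitric oxide synthase, draws on the same substrate as arginase (ENSMUSG00000020826, chr11:78920787-78960254). It was 10.4, 0.91 and 7.24 FPKM in Ctrl-IgG and 24.8, 31.3 and 17.7 FPKM in aCSF1R. IL-10-Fc tumours held 3.75, 6.30 and 43.0 FPKM, and BF10 tumours 6.28, 12.65 and 16.55 FPKM. Every aCSF1R library was above every Ctrl-IgG and BF10 library, whereas IL-10-Fc held both the highest library of all, replicate 3, and values within the Ctrl-IgG range. The SD in IL-10-Fc, 22.0 FPKM, exceeded its mean of 17.7 FPKM.

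Promoter windows in RefSeq (GRCm38.p6) were found for 6 of the 10 genes, and those of Mrc1, Cd68 and Trem2 are shown because they hold the core motif of PU.1, the transcription factor that macrophages need to develop. The windows are the 250 bases before the annotated start, written 5′ to 3′ on the strand of the gene, and capitals mark GAGGAA or its reverse complement TTCCTC.
Mrc1, chr2:14229164-14229413, plus strand: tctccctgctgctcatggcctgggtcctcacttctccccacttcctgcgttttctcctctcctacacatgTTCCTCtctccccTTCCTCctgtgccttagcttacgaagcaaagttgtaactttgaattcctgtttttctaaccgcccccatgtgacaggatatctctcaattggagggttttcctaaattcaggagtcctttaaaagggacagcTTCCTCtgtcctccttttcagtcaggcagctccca
Cd68, chr11:69666171-69666420, minus strand: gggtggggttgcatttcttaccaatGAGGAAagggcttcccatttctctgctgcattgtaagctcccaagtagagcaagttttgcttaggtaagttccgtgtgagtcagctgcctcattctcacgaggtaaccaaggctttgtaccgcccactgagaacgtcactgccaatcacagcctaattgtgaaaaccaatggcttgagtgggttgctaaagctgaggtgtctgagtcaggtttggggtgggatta
Trem2, chr17:48346151-48346400, plus strand: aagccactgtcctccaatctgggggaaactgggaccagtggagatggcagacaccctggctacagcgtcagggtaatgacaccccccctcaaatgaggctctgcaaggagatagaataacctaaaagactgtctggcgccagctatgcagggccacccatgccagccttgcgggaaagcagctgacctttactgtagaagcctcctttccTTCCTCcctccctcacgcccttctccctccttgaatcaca
Mrc1 held the motif 3 times, and Cd68 and Trem2 once each. The windows of Mertk, Cd163 and Folr2 held it 0 times, which says only that these letters were not in those bases. The motif, searched on both strands, was present in 23.3% of 32851 promoter windows of this length, so its presence is common. Cd68 also held 1 match to the C/EBP motif TTGCNNAA, which 9.56% of windows hold and which did not overlap the PU.1 match. No match to the kappa B motif or the STAT motif TTCNNNGAA was found in any window of these 6 genes, against 0.14% and 7.02% of all windows.

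The comparison of aCSF1R with Ctrl-IgG asks what the antibody alone changed, and both groups lie on the same side. Adgre1, Msr1 and Trem2 were wholly lower in aCSF1R and Nos2 wholly higher. Thus 4 of the 10 genes did not overlap between these groups, against 14.9% of all tested genes. Differences were tested by limma on log2(FPKM + 1) across all tested genes, and a gene was called at a Benjamini-Hochberg adjusted p under 0.05 and a change of at least 1.5-fold. None of the 10 genes was called (0 of 10), as was none of all tested genes (0%, with 437 genes at an unadjusted p under 0.05). Before adjustment 5 of the 10 had a p under 0.05.

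Of these 5, the scavenger receptor Msr1 had the smallest p, with a log2 difference of -1.42 (SE 0.43, limma adjusted p = 0.958). Adgre1 followed with -1.02 (SE 0.35) and Nos2 with 2.15 (SE 0.83). The difference was 1.00 for Arg1 (SE 0.42) and -0.83 for Mrc1 (SE 0.36), all 5 with the same adjusted p. These 5 kept their sign in all 18 alternative settings, with ranges of -1.68 to -1.02 for Msr1, -1.39 to -0.66 for Adgre1, 1.36 to 2.65 for Nos2, -1.09 to -0.39 for Mrc1 and 0.63 to 1.85 for Arg1. Without the 3 libraries that held keratinocyte genes, which leaves 1 aCSF1R library assumed to vary like the others, Msr1 was at -1.02 and Adgre1 at -0.94. Mrc1 then moved to -0.39, Trem2 from -0.51 to -0.14 and Arg1 to 1.85. The interval of the difference was wide for the genes near 0, at -0.16 ± 0.96 for Cd68, 0.15 ± 1.13 for Mertk and -0.02 ± 1.51 for Cd163 (95% intervals on the log2 scale).

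The sample titles carry a code whose first number is 1 to 4 in 7 libraries, among them the 4 of highest FPKM sum, and 5 to 7 in the other 5. Its meaning is not given. Within both strata of this number the ratio of the aCSF1R mean to the Ctrl-IgG mean was below 1 for Adgre1 (0.385 and 0.486), Msr1 (0.238 and 0.651), Mrc1 (0.437 and 0.645), Trem2 (0.716 and 0.58) and Cd68 (0.971 and 0.758). It was above 1 in both for Nos2 (4.94 and 2.45) and Arg1 (2.00 and 2.15). The strata went in opposite directions for the other 3 genes. The stratum of the higher numbers holds 1 library of each group, aCSF1R replicate 3 and Ctrl-IgG replicate 3. The second ratio of each pair therefore compares single libraries, and Ctrl-IgG replicate 3 is among those with keratinocyte genes.

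The comparison of BF10 with IL-10-Fc, again within a side, addresses the effect of joining the antibody to the cytokine. All 10 genes overlapped between these groups, against 5.18% of tested genes that did not. None was called (0 of 10), and limma called 0.0126% of tested genes, namely Ighg3 and Mir1893, which are named here after their values were seen. At an unadjusted p under 0.05 there were 828 genes and 1 of the 10. That gene was Trem2, with a log2 difference of 0.74 (SE 0.33, limma adjusted p = 0.478), and its median was 28.7 FPKM in BF10 against 11.25 FPKM in IL-10-Fc. Cd68 differed by 0.85 ± 0.96 and Folr2 by 0.56 ± 0.62, intervals that just include 0. Mrc1 differed by 0.07 ± 0.79, Msr1 by -0.31 ± 0.94 and Nos2 by 0.06 ± 1.83, and the half-width of 1.83 for Nos2 leaves room for a change in either direction.

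The median log2 difference of all tested genes was 0.34 here and that of the 10 genes 0.53, and with size factors they were 0.035 and 0.10. Adgre1 was then at -0.028 in place of 0.39. Before such scaling, BF10 held more than IL-10-Fc in both title strata for Adgre1 (ratios of means 1.27 and 1.78), Cd68 (1.35 and 1.32), Trem2 (1.44 and 1.34), Arg1 (1.05 and 1.81), Mertk (1.21 and 1.65) and Folr2 (1.18 and 1.85). The strata were opposed for Mrc1, at 0.852 and 1.79, and for Msr1, at 0.813 and 1.26. They were also opposed for Nos2, at 1.25 and 0.339, and Cd163. IL-10-Fc has 1 library and BF10 2 in the stratum of the higher numbers, and the reverse in the other.

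Averaged over both within-side differences, the antibody part gave no call among the 10 genes (0 of 10, against 0.00632% of tested genes, which is Ighg3 alone). At an unadjusted p under 0.05 there were 893 genes, Msr1 at -0.86 (SE 0.30) and Arg1 at 0.75 (SE 0.30) among them, both with an adjusted p of 0.436. Whether the antibody part acted differently with and without interleukin-10 was tested as a departure from additivity, which compares a difference on one side with that on the other and so cannot be told apart from the sides. In it again 0 of 10 genes and 0.00632% of all genes, Ighg3, were called. Of the 10, Adgre1, at 1.42 (SE 0.50), and Trem2, at 1.25 (SE 0.46), were among the 412 genes at an unadjusted p under 0.05, both with an adjusted p of 0.9996. Their differences were -1.02 and -0.51 in aCSF1R against Ctrl-IgG and 0.39 and 0.74 in BF10 against IL-10-Fc.

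Between the sides, 5 of the 10 genes were higher in all 6 IL-10-Fc and BF10 libraries than in all 6 of the others: Mrc1, Msr1, Trem2, Folr2 and Arg1. The same held for 9.73% of tested genes. Adgre1, Cd68, Cd163, Mertk and Nos2 overlapped between the sides.

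The 3 comparisons across the sides share groups: Ctrl-IgG serves in a pair of them and BF10 in another pair. In each of them the labelled treatment cannot be told apart from the difference in H2-Ea, Xist and simple epithelium genes, so the values below are differences between these sets of libraries. The first sets IL-10-Fc against Ctrl-IgG. Arg1, Msr1 and Mrc1 rose, 3 of 10 called higher against 10.1% of tested genes, and 0 fell, against 23.6%. In either direction 33.7% of tested genes were called, and the groups did not overlap in 37.3%. Arg1 rose by 3.11 on the log2 scale (SE 0.42, adjusted p = 0.000353), Msr1 by 1.92 (SE 0.43, adjusted p = 0.006) and Mrc1 by 1.48 (SE 0.36, adjusted p = 0.00941). Trem2 was at 0.73 (adjusted p = 0.108) and Folr2 at 0.62 (adjusted p = 0.112). Cd68, Mertk and Adgre1 had log2 differences of -0.75, -0.93 and -0.14, and with median-of-ratios size factors Adgre1 turned to 0.33. The median of all tested genes was -0.39, and those size factors brought it to -0.0035, when 2534 of 5213 calls were higher in place of 1597 of 5326. Trem2 and Folr2 were then called too, which made 5 of 10. Without IL-10-Fc replicate 3, Cd68 and Mertk were called lower beside the 3 rises, at -1.19 and -1.35. In that fit 5949 of 15813 tested genes were called lower and 2093 higher. Without the 3 libraries with keratinocyte genes, an alternative chosen after seeing the data, only Arg1 kept its call (1 of 10), with 3.37, while Msr1 was at 1.77 (adjusted p = 0.0546) and Mrc1 at 1.54 (adjusted p = 0.0585). The Mrc1 call was also lost without the 4 libraries of highest FPKM sum (0.89, adjusted p = 0.0733) and when only these groups entered the fit. Nos2, at 1.03 (adjusted p = 0.352), was called higher without those 4 libraries (2.18, adjusted p = 0.00435) and with the FPKM sum as a covariate (2.08, adjusted p = 0.00241).

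In BF10 against aCSF1R, also across the sides, 6 of 10 genes rose, against 11% of tested genes called higher, and 0 fell, against 14%. Over both directions limma called 25% of tested genes, and 55.7% did not overlap. Msr1 rose by 3.02 on the log2 scale (SE 0.43, adjusted p = 0.000622), Arg1 by 2.60 (SE 0.42, adjusted p = 0.00136) and Mrc1 by 2.37 (SE 0.36, adjusted p = 0.000916). Trem2 rose by 1.97 (SE 0.33, adjusted p = 0.0015), Adgre1 by 1.28 (SE 0.35, adjusted p = 0.0222) and Folr2 by 1.26 (SE 0.28, adjusted p = 0.00755). Nos2 had a negative difference, at -1.05 (SE 0.83, adjusted p = 0.384). Cd163 was at 1.37 (SE 0.69, adjusted p = 0.172). With the FPKM sum as a covariate it was called higher (1.62, adjusted p = 0.0176), where 2904 of all tested genes were called higher in place of 1743. Without the 4 libraries of highest FPKM sum, which leaves 1 IL-10-Fc library in the fit, Cd163 was at 2.01 and Cd68 at 0.68 in place of 0.26. Without the keratinocyte libraries, with 1 aCSF1R library left, the log2 changes were 2.48 for Msr1, 2.01 for Arg1, 2.00 for Mrc1, 1.79 for Trem2 and 1.19 for both Adgre1 and Folr2, but 0 of 10 genes were called, with adjusted p from 0.0797 for Msr1 to 0.365 for Adgre1 among the 6, and 769 genes were called in all in place of 3955. Adgre1 also lost its call without any 1 aCSF1R library and without BF10 replicate 1 or 3, at log2 changes of 1.18 to 1.44 over all alternatives.

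In BF10 against Ctrl-IgG, the last comparison across the sides, Arg1, Msr1, Mrc1, Trem2 and Folr2 rose, 5 of 10 against 11.8% of tested genes called higher. None fell, against 13.2%, and limma called 24.9% in either direction, while 38.4% did not overlap. Arg1 rose by 3.60 on the log2 scale (SE 0.42, adjusted p = 0.000222), Msr1 by 1.61 (SE 0.43, adjusted p = 0.0184) and Mrc1 by 1.55 (SE 0.36, adjusted p = 0.00929). Trem2 rose by 1.47 (SE 0.33, adjusted p = 0.00756) and Folr2 by 1.17 (SE 0.28, adjusted p = 0.0107). The general markers did not pass, with 0.10 ± 0.96 for Cd68 and 0.26 ± 0.78 for Adgre1 (95% intervals). Trem2 and Arg1 alone kept their calls without the keratinocyte libraries (2 of 10), where the log2 changes of Mrc1, Msr1 and Folr2 were 1.61, 1.46 and 1.35. Cd163, at 1.35 (adjusted p = 0.188), was called higher without Ctrl-IgG replicate 3 and with the FPKM sum as a covariate (1.24, adjusted p = 0.0497). The Msr1 call was further lost with size factors and without Ctrl-IgG replicate 1 or 3 or BF10 replicate 1, at 1.38 to 1.96 over all alternatives, and that of Folr2 in the fit of these groups alone.

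**Figure D2:**
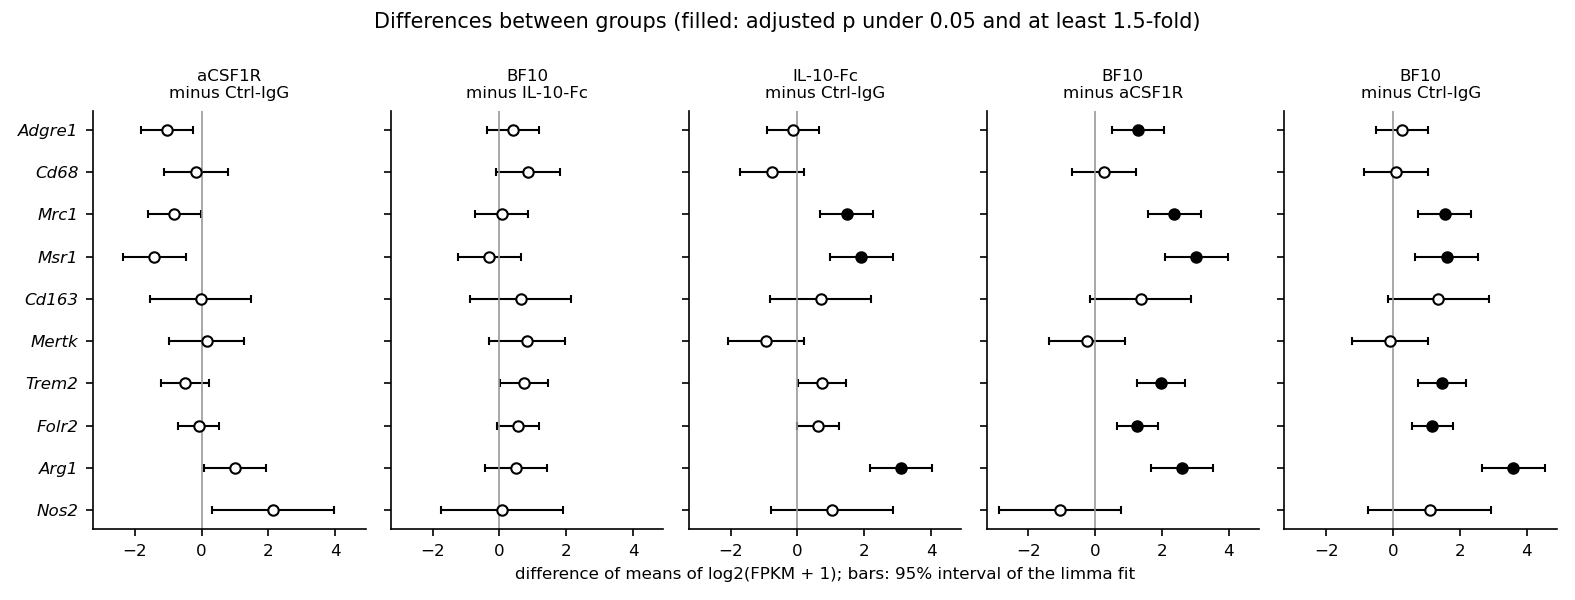
Differences of mean log2(FPKM + 1) for the 10 genes in 5 comparisons, with 95% intervals of the limma fit; filled points were called. The 2 comparisons within a side, at left, hold no filled point, and the 3 across the sides hold 3, 6 and 5, all to the right of 0.

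Genes of some other cell types differed between the sides as well, and those of others did not or were mixed. Neutrophil genes (10 genes, summed) were 31.8 to 309.8 FPKM across the Ctrl-IgG tumours and 181 to 339.9 FPKM with aCSF1R, against 1051 to 4597 FPKM with IL-10-Fc and 555 to 1678 FPKM with BF10. Of the 9 that passed the filter, 7 were called higher in IL-10-Fc than in Ctrl-IgG, 6 in BF10 than in Ctrl-IgG and 4 in BF10 than in aCSF1R. Ly6g, which defines mouse neutrophils, did not pass the filter. Osteoclast genes (6 genes, summed), which other macrophage-lineage cells can share, were at most 49.6 FPKM in Ctrl-IgG and aCSF1R and 210.9 to 893 FPKM in IL-10-Fc and BF10, and all 5 tested were called higher in each of the 3 comparisons. Fibroblast genes (6 genes, summed) were 163 to 607 FPKM in Ctrl-IgG and aCSF1R and 1014 to 2308 FPKM in IL-10-Fc and BF10, with 4 of 6 called higher in IL-10-Fc and in BF10 against Ctrl-IgG and 2 in BF10 against aCSF1R. Of 4 tested adipocyte genes 3, and of 4 tested T cell genes 2, were called higher in BF10 against either group of the other side. In IL-10-Fc against Ctrl-IgG 0 genes of these 2 lists were called. Of 7 tested monocyte genes, 1 rose and 2 fell in IL-10-Fc and 0 rose and 2 fell in BF10 against Ctrl-IgG, and 3 rose in BF10 against aCSF1R. Of 6 tested endothelial genes 1 was called higher, in IL-10-Fc, and of 4 tested dendritic genes 1, in BF10, both against Ctrl-IgG. No gene of these lists was at 0 in every library. Their part in the levels of the 10 genes was not tested.

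Ratios within a library do not depend on its scaling. The ratio of Mrc1 to Adgre1 was 0.815, 0.566 and 0.771 in Ctrl-IgG and 0.806, 0.63 and 1.02 in aCSF1R. In the IL-10-Fc tumours the ratio reached 2.40, 2.83 and 1.88, and in the BF10 tumours 1.73, 2.06 and 1.73. The sides were therefore apart in this ratio as well, and more evenly than in Mrc1 alone. Set against Cd68, Mrc1 overlapped between the sides, at 0.261 in IL-10-Fc replicate 3 and 0.292 in Ctrl-IgG replicate 2. Msr1 to Cd68 overlapped too, at 0.922 in IL-10-Fc replicate 3, 0.761 in BF10 replicate 3 and 0.98 in Ctrl-IgG replicate 2. The ratio of Trem2 to Cd68 was 0.132, 0.153 and 0.15 in Ctrl-IgG and 0.118, 0.093 and 0.115 in aCSF1R, compared with 0.391, 0.558 and 0.362 with IL-10-Fc and 0.489, 0.394 and 0.34 with BF10. Arg1 to Cd68 was 0.199 to 0.337 in Ctrl-IgG and 0.449 to 0.896 in aCSF1R, against 2.16 to 8.95 in IL-10-Fc and 1.88 to 4.77 in BF10, so aCSF1R lay wholly above Ctrl-IgG in it.

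The ratio of Arg1 to Nos2 is a common index of alternative against classical activation. It was 1.74, 9.58 and 3.09 in Ctrl-IgG and 0.756, 1.12 and 2.71 in aCSF1R. For IL-10-Fc it came to 32.3, 27.4 and 3.02, and for BF10 to 24.6, 24.7 and 9.60. The sides overlapped in this ratio with IL-10-Fc replicate 3, at 3.02, inside the Ctrl-IgG range.

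**Figure D3:**
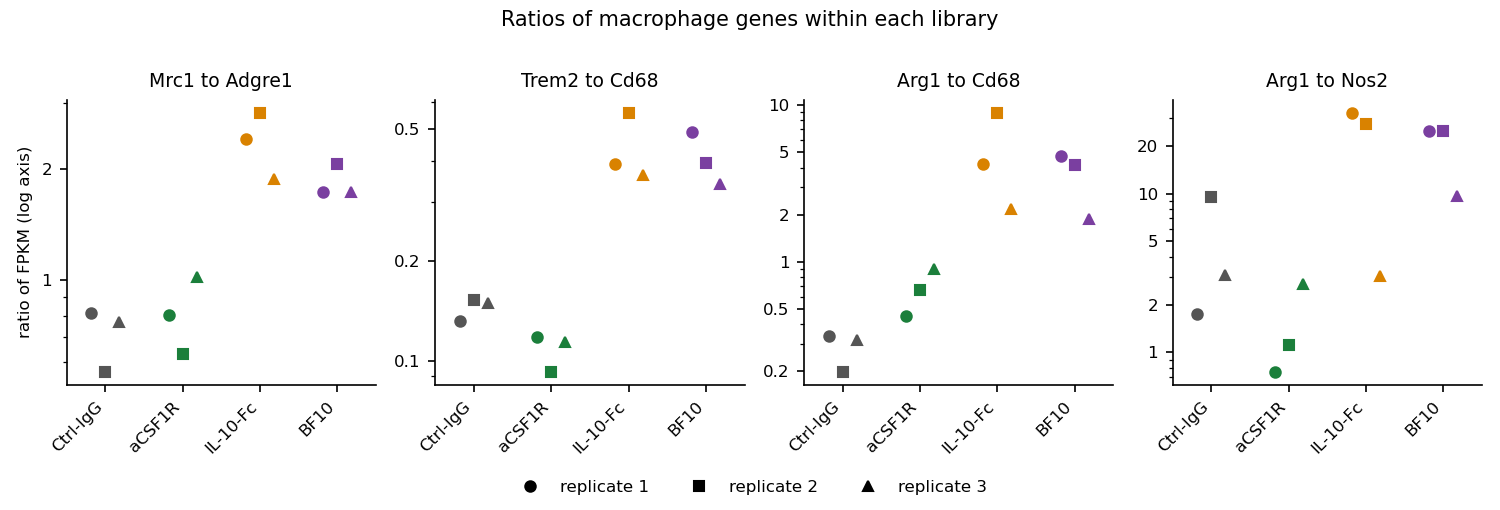
Ratios of FPKM within each of the 12 libraries (log axes) by group, with symbols for the 3 replicates. Mrc1 to Adgre1, Trem2 to Cd68 and Arg1 to Cd68 separate IL-10-Fc and BF10 from Ctrl-IgG and aCSF1R without overlap, whereas Arg1 to Nos2 does not.

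Across the 12 libraries, deviations of log2(FPKM + 1) from the group means showed which of the 10 genes varied together. These values are a description, since libraries share depth, composition and the differences in FPKM sum. Adgre1, Mrc1 and Msr1 formed one block, with Pearson's r of 0.84 for Adgre1 with Mrc1, 0.74 for Adgre1 with Msr1 and 0.87 for Mrc1 with Msr1. Cd68, Trem2, Mertk and Cd163 formed another, with r from 0.79 for Cd68 with Cd163 to 0.95 for Cd68 with Trem2. Nos2 went against the former block, at -0.87 with Adgre1, -0.92 with Mrc1 and -0.93 with Msr1. Arg1 and Folr2 stood apart, with a highest r of 0.38 for Arg1 (with Trem2) and 0.57 for Folr2 (with Mertk). The general markers Adgre1 and Cd68 had an r of -0.42 with each other. The blocks were not alike on both sides: Trem2 with Mertk was at 0.23 over the 6 libraries of Ctrl-IgG and aCSF1R and 0.96 over the other 6, and Trem2 with Mrc1 was at 0.72 and -0.54.

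**Figure D4:**
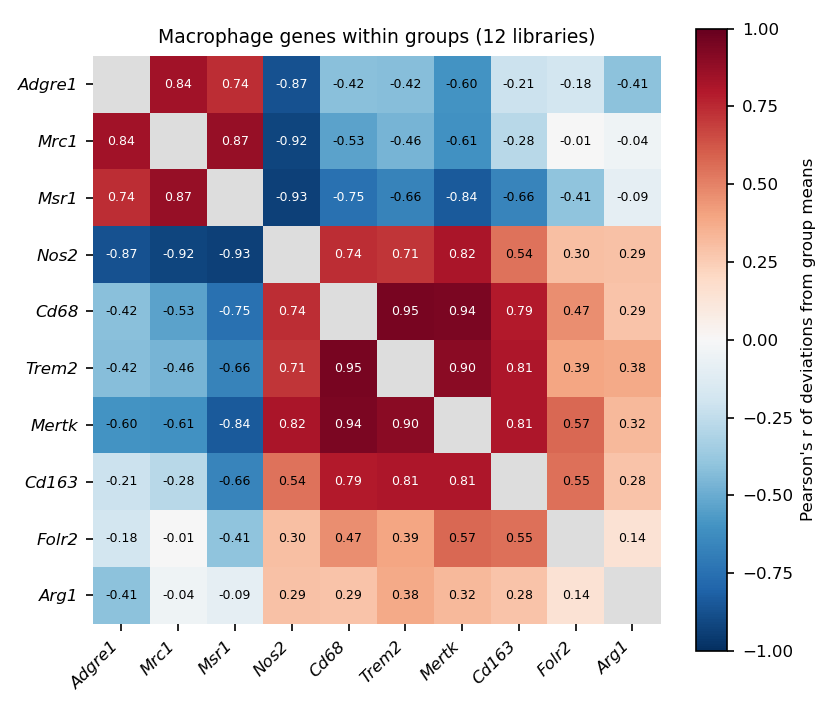
Pearson's r between the 10 genes over 12 libraries, computed on deviations of log2(FPKM + 1) from the group means; colour runs from -1 (blue) to 1 (red) and grey marks a gene with itself. The blocks of Adgre1, Mrc1 and Msr1 and of Cd68, Trem2, Mertk and Cd163 are red within, and Nos2 is blue against the former.

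By the same measure over all tested genes, each of the 10 has nearest genes. For Adgre1 they were Ttpa (r = 0.97), Mid2 (0.96) and Abca1 (0.96), and for Cd68 Gpr35 (0.99), Slc29a3 (0.99) and Chp1 (0.99). Those of Mrc1 were Fcgr3 (0.96), Ctss (0.95) and Tlr13 (0.95), which myeloid cells express, and those of Msr1 were Rcbtb2 (0.98), Stk17b (0.98) and Taf13 (0.98). Trem2 was nearest to Tnfrsf11a (0.99), the receptor RANK of osteoclast precursors, Pde4b (0.99) and Gtf3c4 (0.98). Not all of these were alike on both sides. Over the Ctrl-IgG and aCSF1R libraries Trem2 had an r of 0.082 with Pde4b and 0.35 with Gtf3c4, against 0.98 and 0.97 over those of IL-10-Fc and BF10. Msr1 with Rcbtb2 was at 0.50 and 0.97. Mertk was nearest to Trpv2 (0.99), Aldh5a1 (0.99) and Sergef (0.99), and Cd163 was near Apoe (0.98) and Ripor3 (0.98). Nos2 was nearest to Clcf1 (0.99), Bcl2l2 (0.99) and P4ha2 (0.99). Folr2, with Hoxd9 (0.91), Phldb3 (0.90) and Fxyd2 (0.89), and Arg1, with Anp32-ps (0.88), Snora9 (0.88) and mt-Tc (0.84), had the weakest neighbours.

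A list of 24 further macrophage marker genes, from Csf1r and Itgam to the complement C1q chains, was described in the same fit. In aCSF1R against Ctrl-IgG 0 of 24 were called, 23 had a negative log2 difference, and the median was -0.75 against 0.11 over all tested genes. Without the 3 libraries with keratinocyte genes, which leaves only aCSF1R replicate 3 in its group, the list median was -0.46, against 0.11 over all tested genes. In 12 of the 24 every aCSF1R library lay below every Ctrl-IgG library, against 6.04% of tested genes. Ctss, the lysosomal protease cathepsin S, was 187 to 453 FPKM in Ctrl-IgG and 119.8 to 170.3 FPKM in aCSF1R, a log2 difference of -1.12 (adjusted p = 0.958). Lyz2, a lysozyme of macrophages and neutrophils, was 78.2 to 351 FPKM and 106 to 114 FPKM, so its groups overlapped (-0.72). Csf1r, the target of the antibody, was 7.33 to 22.1 FPKM in Ctrl-IgG and 6.91 to 8.14 FPKM in aCSF1R (-0.53, adjusted p = 0.958). Adgre1, Msr1 and Mrc1 lay further from 0 than Csf1r in this comparison, though whether they differ from it was not tested.

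Against aCSF1R, 19 of the 24 markers rose in BF10 and 0 fell, where 11% of tested genes rose, and the median log2 change was 1.66. Lyz2 rose by 3.31 (adjusted p = 0.00171) and the chemokine receptor Cx3cr1 by 2.61 (adjusted p = 0.0119). Against Ctrl-IgG 5 rose in BF10, among them Lyz2 (2.59, adjusted p = 0.00657), with a list median of 0.75, and 4 rose in IL-10-Fc, with a median of 0.16, among them Lyz2 (2.89, adjusted p = 0.00284) and C1qc (1.52, adjusted p = 0.0134). Without the keratinocyte libraries, which leaves only aCSF1R replicate 3, fewer of the 24 were called in each comparison, as were fewer of all tested genes. The list medians were then 1.31 in BF10 against aCSF1R, 1.04 in BF10 against Ctrl-IgG and 0.44 in IL-10-Fc against Ctrl-IgG. Those of all tested genes were -0.17, -0.046 and -0.31. Without the 4 libraries of highest FPKM sum, which leaves only IL-10-Fc replicate 3, the list medians were 1.90, 0.89 and 0.46 in that order. More of all tested genes were then called higher in each of these comparisons.

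**Figure D5:**
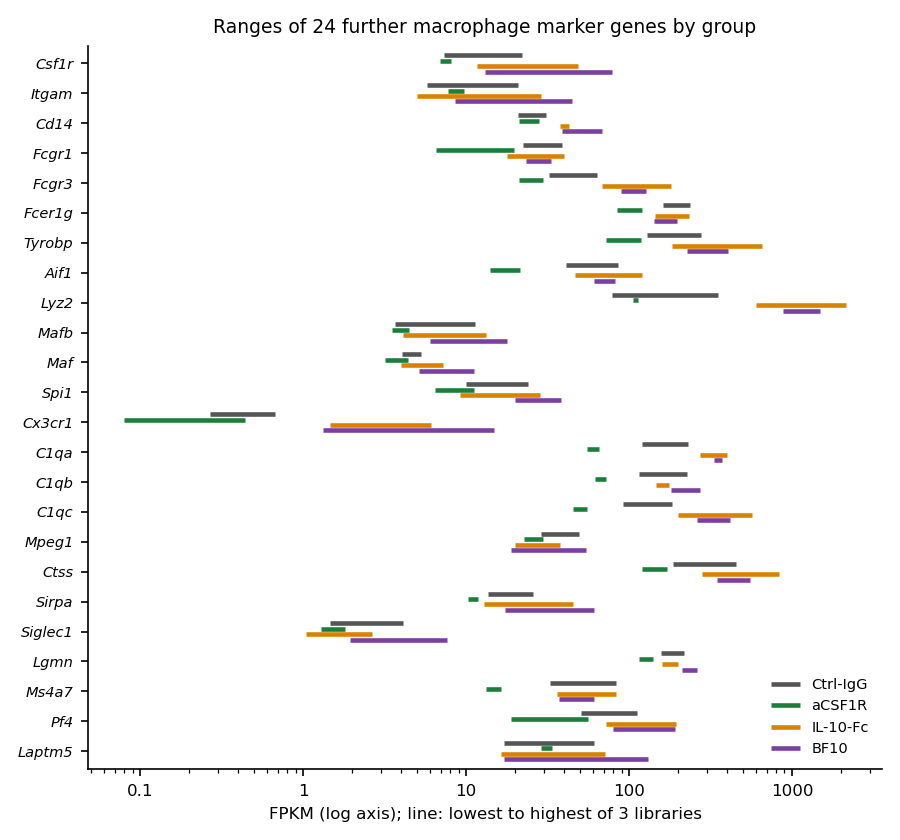
Lowest to highest FPKM (log axis) of the 3 libraries of each group for 24 further macrophage marker genes. The aCSF1R line lies wholly below the Ctrl-IgG line in 12 genes and wholly below the BF10 line in 21.

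The counts of the lists that follow stand against the shares of all tested genes: 11.8% higher and 13.2% lower in BF10 against Ctrl-IgG, 10.1% and 23.6% in IL-10-Fc against Ctrl-IgG, and 11% and 14% in BF10 against aCSF1R. The receptors for apoptotic cells and lipoproteins related to Mertk, Msr1 and Cd163 are considered first. Among 11 tested efferocytosis genes, 2 rose and 0 fell in BF10 against Ctrl-IgG, namely Pros1, which encodes a ligand of Mertk (1.98, adjusted p = 0.000202), and Axl, a receptor kinase of the Mertk family (1.02, adjusted p = 0.029). The list median was 0.71, against -0.12 over all tested genes. Pros1 also rose in IL-10-Fc (2.02, adjusted p = 0.000119), where Tyro3, of the same family, fell by 1.75 on the log2 scale (adjusted p = 0.0194). Among 9 tested scavenger receptors, Colec12 and Cxcl16 rose in each of the 3 comparisons across the sides, by 3.03 (adjusted p = 0.000717) and 1.496 (adjusted p = 0.00698) in BF10 against Ctrl-IgG. Scarb2 and Scara5 fell in each, by 1.76 and 1.57 on the log2 scale in the same comparison. In the 2 comparisons within a side 0 genes were called in any list described here.

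Trem2 is known from lipid-handling macrophages, and of 16 other genes of that state that were tested 0 rose and 2 fell in BF10 against Ctrl-IgG, the glycoprotein gene Gpnmb by 3.27 (adjusted p = 0.00812) and the lipoprotein lipase Lpl by 1.24 (adjusted p = 0.04997). Against aCSF1R 3 rose, including Apoe (2.11, adjusted p = 0.0299) and the adaptor Tyrobp (1.70, adjusted p = 0.0245), and Gpnmb fell by 3.90 (adjusted p = 0.00321). The median of the list was 0.16 and -0.0074 in these comparisons, while Trem2 itself was at 1.47 and 1.97. Without the 4 libraries of highest FPKM sum the list gave 4 rises and 3 falls against Ctrl-IgG and 5 and 2 against aCSF1R.

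Among genes of arginine use beside Arg1 and Nos2, Arg2, the mitochondrial arginase, rose by 2.15 in BF10 (adjusted p = 0.00286) and 2.92 in IL-10-Fc (adjusted p = 0.000359) against Ctrl-IgG and by 1.57 in BF10 against aCSF1R (adjusted p = 0.0149), the 1 rise among 10 tested genes in each, a share near that of all tested genes. The arginine transporter Slc7a1 fell by 2.44 (adjusted p = 0.00831) and the neuronal synthase Nos1 by 1.58 (adjusted p = 0.00116) in IL-10-Fc, where 4 of the 10 fell and the list median was -0.36, near that of all tested genes.

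Of 15 tested genes of alternative activation, 4 rose and 1 fell in BF10 against Ctrl-IgG, 3 rose and 2 fell in IL-10-Fc, and 2 rose and 0 fell in BF10 against aCSF1R. The eosinophil chemokine Ccl24 rose by 2.83 (adjusted p = 0.00443) and the lectin Mgl2 by 1.91 (adjusted p = 0.00113) in BF10 against Ctrl-IgG, whereas Chil3, a chitinase-like protein gene, fell by 2.33 (adjusted p = 0.0237). The list median was 0.66. Of 18 tested genes of classical activation, 2 rose and 2 fell in the same comparison, shares near those of all tested genes, with a median of 0.23. Cxcl10, an interferon-induced chemokine, fell by 3.20 (adjusted p = 0.00132) and Ccl5 by 1.34 (adjusted p = 0.0178), while the cytokine gene Il1a rose by 2.33 (adjusted p = 0.00272). In IL-10-Fc against Ctrl-IgG 4 rose, among them Il1a by 3.23 (adjusted p = 0.000295) and the cytokine gene Il1b by 2.22 (adjusted p = 0.012). There 2 fell, Cxcl10 by 3.91 (adjusted p = 0.000288) and Ccl5 by 2.22 (adjusted p = 0.0009), and the list median was 0.14. Nos2, the classical marker among the 10 genes, was not called here apart from the alternatives given above.

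Resident-macrophage genes other than Folr2 rose without any fall, at 5 of 10 tested in IL-10-Fc against Ctrl-IgG, 4 in BF10 against Ctrl-IgG and 5 in BF10 against aCSF1R. The list medians were 1.02, 1.62 and 1.35. F13a1, coagulation factor XIII A, rose by 2.38 (adjusted p = 0.00113), 2.37 (adjusted p = 0.00154) and 2.54 (adjusted p = 0.00106) in that order. The resident markers Timd4, Cd5l, Clec4f and Cd209f did not pass the filter. Of 3 tested folate carriers and receptors beside Folr2, 0 were called in BF10, and Slc19a1 fell by 1.48 in IL-10-Fc against Ctrl-IgG (adjusted p = 0.0327). Of 14 genes known to respond to interleukin-10 in macrophages, 0 rose and 1 fell in IL-10-Fc against Ctrl-IgG, the haem oxygenase Hmox1 by 2.77 (adjusted p = 0.00286). In BF10 against Ctrl-IgG the lipopolysaccharide co-receptor Cd14 rose by 0.99 (adjusted p = 0.0121) and Hmox1 fell by 1.78 (adjusted p = 0.0334), and the list medians were -0.54 and 0.11. Of Csf1r and its ligands, Il34 rose in IL-10-Fc (1.22, adjusted p = 0.0275) and BF10 (1.38, adjusted p = 0.0194) against Ctrl-IgG, and Csf1r rose in BF10 against aCSF1R (2.33, adjusted p = 0.0311).

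Without the 3 libraries with keratinocyte genes these lists lost calls too. Resident-macrophage genes then gave 3 rises of 10 in IL-10-Fc and 3 in BF10 against Ctrl-IgG, and 2 in BF10 against aCSF1R, with 0 falls in each. In BF10 against Ctrl-IgG, alternative activation then gave 3 rises and 0 falls of 15, classical activation 1 and 1 of 18, the Trem2-associated genes 1 and 0 of 16, and efferocytosis genes 1 and 0 of 11. In BF10 against aCSF1R each of these last 4 lists gave 0 calls. Without the 4 libraries of highest FPKM sum, resident-macrophage genes gave 0 calls in IL-10-Fc against Ctrl-IgG, with a median of 0.69, and 4 and 5 rises in BF10 against Ctrl-IgG and aCSF1R. Efferocytosis genes then gave 7 rises and 1 fall in BF10 against Ctrl-IgG and alternative activation 8 and 2, where 2978 and 3416 of all tested genes were called higher and lower.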

How the data were processed

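Messenger RNA of tumours was sequenced by the authors from 12 stranded TruSeq libraries (4 groups of 3) on an Illumina instrument. Per the labels' processing notes STAR 2.7.5a, RSEM 1.3.3 and DESeq2 1.30.0 were used with build GRCm38 (mm10). The authors deposited FPKM values of 55401 genes per library, which are not scaled between libraries and carry no counts, so the depth behind a value is unknown. Tables of the authors' own DESeq2 comparisons (mean normalized count, log2 fold change, standard error, statistic, p and adjusted p) were not used. Groups were taken from the treatment label. Nothing in the labels says that the libraries came from separate animals, so p-values measure the spread between these libraries, which may be technical. Positions came from GENCODE M21 (99.5% of identifiers matched).

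Genes that reached 1 FPKM in 3 or more libraries were fitted on log2(FPKM + 1) with limma 3.58.1 under R 4.3.3 (lmFit, contrasts.fit, and eBayes with trend = TRUE), all 12 libraries in 1 model without covariates. This scale understates changes of low genes. The Benjamini-Hochberg adjustment covered all 15813 fitted genes. The code was tested on simulated data with known changes. The 10 genes were all named. From each list, at most 2 rises and 2 falls of largest change per comparison could be named, or otherwise its 2 most abundant genes, and for each of the 10 the 3 genes of highest r, without predicted genes. Some genes that this rule selects are not reported here. The genes, lists and tests were chosen with earlier results of these data known. Alternatives were another pseudocount, filters on low values, scalings (size factors, TPM, quantiles), covariates, fits of the compared groups alone and libraries left out, and 1 more was added after seeing the data.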

Additional observations from a re-analysis of the deposited data

How the results depend on the processing

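No paired analysis was possible because replicates were numbered by the order of the samples, which pairs no tumours. Among counts of the 10 genes called, 128 of 135 recomputed values stayed within 1.5 times the value reported, and 7 moved. The 2 comparisons within a side, the antibody mean and the departure from additivity gave 0 calls in the main fit and in every alternative. Their recomputed counts therefore compare 0 with 0 and say nothing on the stability of calls. All 7 that moved came from the 3 comparisons across the sides. Calls over all tested genes changed as well. Those higher in IL-10-Fc against Ctrl-IgG were 1597 in the main fit. They were 2741 with the log2 FPKM sum as a covariate, 2534 with size factors and 2461 with quantile normalization. Without the 3 libraries with keratinocyte genes, all 3 comparisons across the sides lost calls over all tested genes. Of the 10 genes, the count in IL-10-Fc against Ctrl-IgG moved to 7 with that covariate and to 5 with size factors and with quantile normalization. It ranged from 3 to 5 with 1 library left out. Without the 3 libraries with keratinocyte genes it was 1, that in BF10 against aCSF1R 0 and that in BF10 against Ctrl-IgG 2; this choice was made after seeing the data and leaves fewer samples. Of the log2 differences of single genes, 1235 kept direction and call, 18 gained a call, 23 lost one and 60 changed sign, none of them called.

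The changes of sign were as follows, and the cause was not tested. With the FPKM sum as a covariate, BF10 against IL-10-Fc became -0.18 for Cd163, 0.27 for Msr1 and -1.13 for Nos2, and aCSF1R against Ctrl-IgG -0.17 for Mertk. The mean antibody difference became -0.27 for Cd163, -0.11 for Cd68, -0.043 for Mertk and -0.19 for Trem2. With size factors, BF10 against IL-10-Fc became -0.028 for Adgre1, -0.37 for Mrc1 and -0.33 for Nos2, the antibody mean -0.021 for Folr2 and -0.15 for Trem2, and IL-10-Fc against Ctrl-IgG 0.33 for Adgre1. With quantile normalization the last was 0.29, the antibody mean -0.064 for Folr2 and -0.14 for Trem2, BF10 against IL-10-Fc -0.11 for Mrc1 and -0.40 for Nos2, and aCSF1R against Ctrl-IgG -0.0062 for Mertk. Cd163 in aCSF1R against Ctrl-IgG became 0.65 with a pseudocount of 0.1 FPKM and 0.069 as TPM. With the title code as a block, Cd68 became -0.18 in BF10 against Ctrl-IgG and -0.016 against aCSF1R, and Nos2 -0.29 in BF10 against IL-10-Fc. Without the libraries with keratinocyte genes, aCSF1R against Ctrl-IgG became 0.27 for Cd163, 0.14 for Cd68 and 0.17 for Folr2, and BF10 against Ctrl-IgG 0.14 for Mertk. Without the 4 libraries of highest FPKM sum, the antibody mean became 0.051 for Adgre1, 0.091 for Mrc1, -0.073 for Nos2 and -0.11 for Trem2, and the departure 0.15 for Arg1. Mertk was then 0.13 in BF10 against Ctrl-IgG, 0.33 against aCSF1R and -0.19 in aCSF1R against Ctrl-IgG, and BF10 against IL-10-Fc was 0.33 for Msr1 and -1.51 for Nos2.

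With 1 library left out, aCSF1R against Ctrl-IgG ranged from -0.32 to 0.017 for Cd68, -0.41 to 0.73 for Cd163, -0.19 to 0.38 for Mertk and -0.30 to 0.090 for Folr2. BF10 against IL-10-Fc ranged from -0.33 to 0.34 for Mrc1 and -0.57 to 1.03 for Nos2, and the departure from -0.089 to 1.304 for Cd163. IL-10-Fc against Ctrl-IgG ranged from -0.50 to 0.23 for Adgre1, and BF10 against aCSF1R from -0.61 to 0.33 for Mertk. BF10 against Ctrl-IgG ranged from -0.11 to 0.62 for Adgre1, -0.16 to 0.52 for Cd68 and -0.46 to 0.48 for Mertk. With FPKM alone the depth behind these values is unknown, and 3 libraries a group limit their precision.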

Other observations

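Set against the geometric mean of the 24 further macrophage markers in the same library, which was 17.0 to 20.4 FPKM in aCSF1R, 28.2 to 44.96 FPKM in Ctrl-IgG, 46.9 to 56.2 FPKM in IL-10-Fc and 50.9 to 78.1 FPKM in BF10, some of the 10 genes took other group orders than in FPKM. Cd68 was 2.45 to 2.73 times that mean in aCSF1R, 1.27 to 1.91 times in Ctrl-IgG, 0.411 to 1.12 times in IL-10-Fc and 0.637 to 1.08 times in BF10, so that aCSF1R lay above all other libraries. Nos2 was 0.871 to 1.61 times the mean in aCSF1R, at most 0.3701 times in Ctrl-IgG and at most 0.212 times in BF10, and IL-10-Fc replicate 3 stood at 0.797 times. Adgre1, which was lowest in aCSF1R by FPKM, was 0.312 to 0.327 times the mean there and 0.2705 to 0.653 times in Ctrl-IgG. Arg1 was 1.10 to 2.36 times the mean in aCSF1R and 0.252 to 0.643 times in Ctrl-IgG. These ratios were computed after the values were seen and were not tested.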
